A study of Mus musculus with 42 samples.

Results

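Foxp3 and the 5 mouse genes of the Ikaros family, Ikzf1 to Ikzf5, were read from the deposited gene counts of sorted CD4+ T cells. The 6 genes were chosen by symbol among 46603 counted Ensembl genes. No measured value was a criterion, but earlier results of these data were known when they were chosen. Regulatory T cells (Treg, 22 libraries) and conventional CD4+ T cells (Tconv, 20 libraries) had been separated by the green fluorescence of the DEREG transgene, which reports Foxp3 expression, from ileum, mesenteric lymph node, ankle synovium, and inguinal plus popliteal lymph nodes (called joint nodes here). TNFdARE mice, which carry DEREG and make excess TNF because the Tnf transcript lacks its AU-rich element, were compared with DEREG littermates that are wild type (WT) for Tnf; no age or treatment is stated. Cell type, site and genotype make 16 groups, sampled in 3 independent experiments called A, B and C. Most groups have 3 libraries. There are only 2 in TNFdARE mesenteric Treg and Tconv (experiments B and C) and, from A and B, in WT synovial Treg and TNFdARE synovial Tconv, and 1 in WT synovial Tconv (A). How many animals went into a library is not stated, so p-values measure the spread between these libraries only.

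Foxp3 is the forkhead factor that defines the Treg lineage, and its loss causes fatal autoimmunity in mice. The Ikaros family are zinc finger factors of lymphocytes: fingers near the start of the protein bind DNA, and a pair at its end joins family members to each other. Ikzf1 encodes Ikaros, needed for lymphoid development and a repressor of cytokine genes in T cells; Ikzf2 encodes Helios, which helps keep Treg stable; Ikzf3 encodes Aiolos, present in activated and helper T cells. Ikzf4 encodes Eos, a partner of Foxp3 in silencing genes in Treg, and Ikzf5 encodes Pegasus, the most divergent member of the family.

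The DNA of the second DNA-binding zinc finger is printed for each Ikaros gene because it shows how alike the family members are that the read counting had to separate. The sequences come from GENCODE M21 transcripts on GRCm38, written 5′ to 3′ along the coding strand, with the codons of the 2 cysteines and 2 histidines that hold the zinc ion in capitals. They lie in exon 6 of Ikzf1 (chr11:11754024-11754086, plus strand), exon 5 of Ikzf2 (chr1:69570581-69570643, minus strand), exon 5 of Ikzf3 (chr11:98488940-98489002, minus strand), exon 5 of Ikzf4 (chr10:128640229-128640291, minus strand) and exon 4 of Ikzf5 (chr7:131392501-131392563, minus strand).
Ikzf1: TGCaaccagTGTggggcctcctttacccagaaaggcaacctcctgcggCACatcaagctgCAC
Ikzf2: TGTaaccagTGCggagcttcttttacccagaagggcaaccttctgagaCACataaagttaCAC
Ikzf3: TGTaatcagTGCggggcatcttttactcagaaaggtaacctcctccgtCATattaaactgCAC
Ikzf4: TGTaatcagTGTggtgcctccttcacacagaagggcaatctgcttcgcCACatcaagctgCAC
Ikzf5: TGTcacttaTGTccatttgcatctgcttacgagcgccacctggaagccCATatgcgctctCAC
Over these 63 bases, Ikzf1 and Ikzf4 were 84.1% identical, and the pairs among Ikzf1 to Ikzf4 ranged from 76.2% to 84.1%. Ikzf5 shared 41.3% to 47.6% with the other members. The longest exact stretch that the full annotated transcripts of any pair of Ikaros genes shared was 32 bases, between Ikzf2 and Ikzf4, against a read length of 100 bases. Foxp3 has no Ikaros finger and its locus, at chrX:7573644-7595245 on the plus strand, shares 853 exon bases with the same-strand long RNA gene Flicr. It also shares 266, 373 and 590 exon bases with Ppp1r3f, Gm36995 and Ccdc22 on the opposite strand. These had at most 600, 56 and 19 reads in any library, and the counts of Foxp3 may hold reads of them. Ikzf5 shares 4652 of its 5721 exon bases with Pstk on the opposite strand, so its counts may hold reads of Pstk. For both genes the reason is that the strand setting of the counting is not given in the sources used here. No other gene's exons overlap those of Ikzf1 or Ikzf3, and Ikzf2 and Ikzf4 have overlaps of 144 and 37 exon bases.

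The libraries held 18261064 to 30301202 counted reads, and no member had fewer than 64 reads in any library. For Foxp3 in WT node Tconv and Ikzf4 in WT ileal Tconv, with under 10 CPM, the spread between libraries was no larger than counting error alone gives, and counting error there is not small. All 8 T cell markers were detected in every group, with a summed level of 3997 to 8829 CPM (a gene's reads per megaread of the library, after TMM scaling of the library totals). Other cells' RNA was most visible in synovium: 7 fibroblast and synovial stroma genes summed to 16238 to 17062 CPM in WT synovial Treg, 1502 to 6781 in TNFdARE synovial Treg, 1031 to 2118 in TNFdARE synovial Tconv and 635 in the WT synovial Tconv library. That WT Tconv library also held 916 CPM of 5 CD8 and NK cell genes, against 32.03 to 83.9 in TNFdARE synovial Tconv. Plasma cell genes (7 in the list) reached 1479 to 11466 CPM in TNFdARE ileal Treg, highest in experiment A. They reached 1953 to 4512 CPM in WT ileal Treg and 1951 to 2065 CPM in TNFdARE mesenteric Treg. Epithelial genes (7 in the list) reached 27.1 to 674 CPM in TNFdARE ileal Treg and 44.2 to 429 CPM in WT ileal Treg. Myeloid genes (9 in the list) summed to 304 CPM in WT synovial Treg A and 3.49 CPM in B. The library descriptions carry a running number, and 10 libraries have a number from 33 to 44: 3 of 6 ileal Treg, 4 of 5 synovial Treg, 1 of 6 joint node Treg and 2 of 3 synovial Tconv. In these bulk libraries, fewer cells with a transcript and less transcript per cell cannot be told apart.

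Foxp3 was abundant in every Treg library and spanned a 235-fold range of group means. Treg of TNFdARE ileum had the highest mean, at 1557 ± 169.8 CPM (SD, n = 3), with 1361, 1647 and 1663 CPM in experiments A, B and C. WT ileal Treg stood at 1247, 1019 and 1216 CPM, and no library of these 2 ileal groups overlapped. TNFdARE synovial Treg stood at 1320.4, 1401 and 1373 CPM. The 2 WT synovial Treg libraries differed from each other, at 1171 CPM in A and 549.6 CPM in B, the lowest value of any Treg library. All 11 Treg libraries of the nodes lay between 968 and 1259 CPM. The Tconv groups fell into steps whose ranges did not overlap: TNFdARE synovium at 604 and 600.0 CPM, then TNFdARE ileum at 119 to 201 CPM, then TNFdARE nodes and the WT synovial library at 22.1 to 39.7 CPM, then WT ileum at 13.3 to 18.9 CPM. WT mesenteric and joint nodes were lowest, at 6.39 to 7.30 and 6.51 to 6.87 CPM. Of the 15 pairs of neighbours in the order of the 16 group means, 10 had overlapping ranges for Foxp3.

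**Figure D1:**
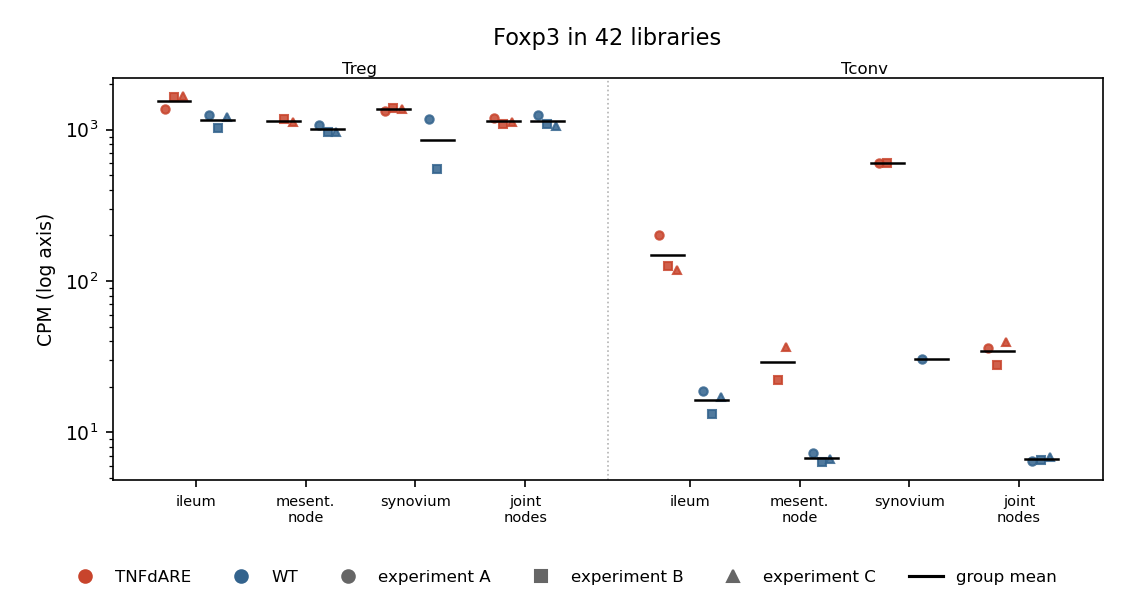
Foxp3 level in each library, in CPM on a log axis, by site, genotype and sorted cell type; each point is 1 library and each bar is a group mean. Treg lie between 549.6 and 1663 CPM, and TNFdARE Tconv lie above WT Tconv at every site, most in synovium.

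Ikzf4, the gene of Eos, was highest in Treg of the TNFdARE joint nodes, at 357, 357 and 349 CPM, above every other library in the series. Treg of TNFdARE ileum (209 to 258 CPM), TNFdARE mesenteric node (230.4 and 238 CPM) and WT joint nodes (225 to 236 CPM) overlapped one another. WT ileal Treg stood lower, at 132, 123 and 119 CPM, and the WT synovial Treg libraries at 108 and 65.8 CPM. Tconv ranged from 96.8 CPM in the TNFdARE synovial library B down to 7.32 CPM in a WT ileal library. The highest group mean was 47.2-fold the lowest.

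Ikzf2, the gene of Helios, had its highest group means in ileal Treg of both genotypes and TNFdARE synovial Treg. WT ileal Treg stood at 898, 603 and 739.9 CPM and TNFdARE ileal Treg at 779, 639 and 764 CPM, with overlapping ranges. TNFdARE synovial Treg stood at 462, 709 and 938 CPM in A, B and C. Node Treg ranged from 281 to 577 CPM. The WT synovial Treg libraries, at 521 and 375 CPM, and TNFdARE synovial A lay within that range. Tconv of the nodes were lowest: WT joint node Tconv had 2.60, 5.94 and 7.26 CPM, so the highest group mean was 142-fold the lowest.

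Ikzf1, the gene of Ikaros, had its lowest levels in Treg. The highest levels were in Tconv of the WT joint nodes (459.9, 530.3 and 452 CPM) and WT mesenteric node (457, 487 and 452 CPM), and the lowest mean was that of TNFdARE synovial Treg, at 38.7, 97.8 and 73.8 CPM. At every site, each Tconv library lay above each Treg library. The highest group mean was 6.86-fold the lowest.

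Ikzf3, the gene of Aiolos, had no common order of the sorts. TNFdARE ileal Tconv were highest, at 438, 396 and 467 CPM, and WT joint node Tconv lowest, at 54.7, 44.8 and 42.1 CPM, a 9.19-fold range of group means. Ileal Treg (238 to 357 CPM) and synovial Treg (167 to 435 CPM) overlapped the Tconv of the same site. Ikzf5, the gene of Pegasus, varied least: group means ran from 22.1 to 36.96 CPM, all 15 neighbour pairs overlapped, and the lowest library was the WT synovial Treg library A, at 15.4 CPM.

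**Figure D2:**
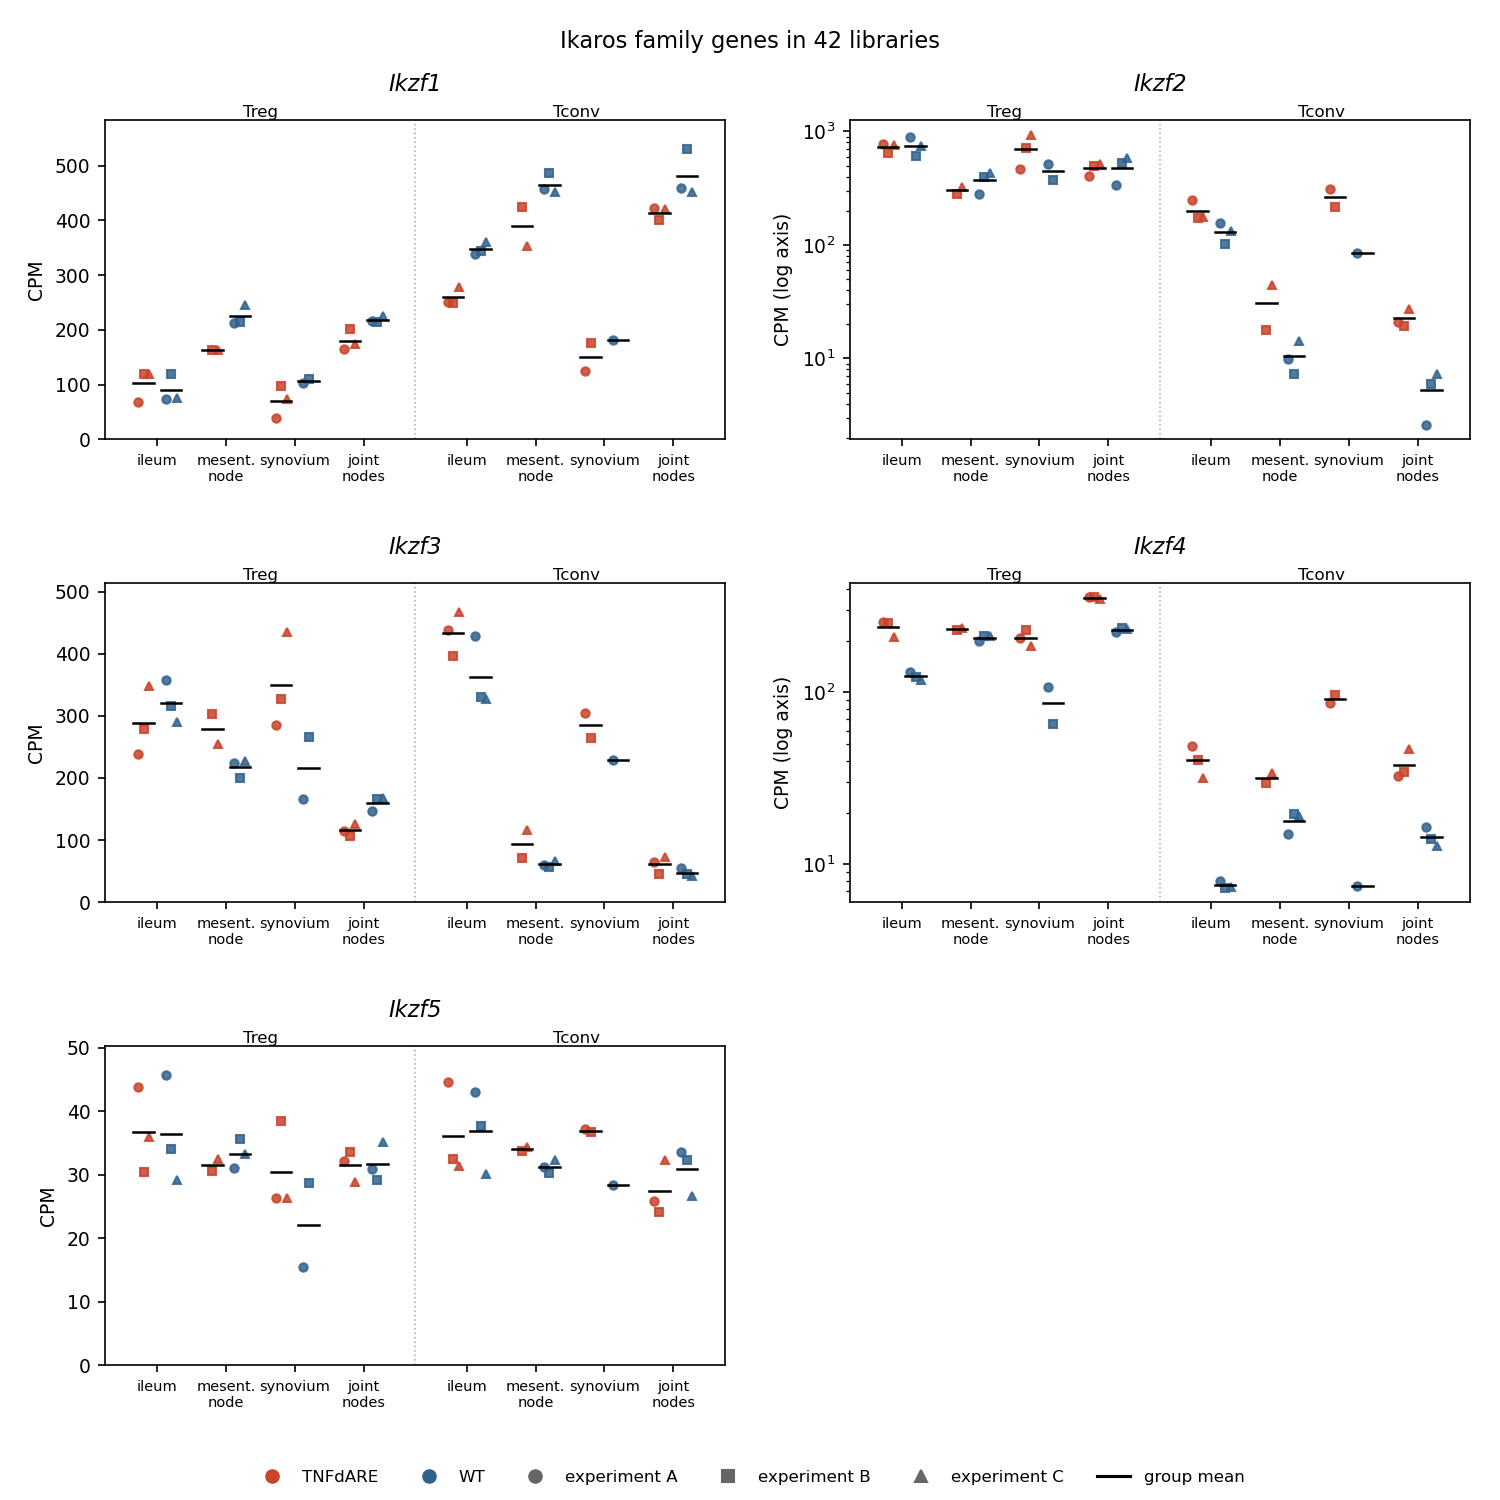
Level of Ikzf1 to Ikzf5 in each library, in CPM, on a log axis for Ikzf2 and Ikzf4 and a linear axis from 0 for the others, by site, genotype (colour), experiment (marker) and sorted cell type; each point is 1 library and each bar is a group mean. Ikzf1 is higher in Tconv at each site, Ikzf2 is higher in Treg at each site, Ikzf4 is higher in Treg with an overlap in synovium, Ikzf3 separates the sorts in the nodes, and Ikzf5 is near level.

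Levels of different genes were compared only per kilobase of exon. On this scale Foxp3 was first of the 6 in all 8 Treg groups, for example 340 CPM per kilobase in TNFdARE ileal Treg beside 62.6 for Ikzf2, 40.1 for Ikzf4, 32.9 for Ikzf3, 17.7 for Ikzf1 and 6.4 for Ikzf5. In WT joint node Tconv, Ikzf1 was first at 83.2 CPM per kilobase, ahead of 5.4 for Ikzf3 and for Ikzf5, 2.4 for Ikzf4, 1.4 for Foxp3 and 0.5 for Ikzf2. TNFdARE synovial Tconv were the one Tconv group in which Foxp3 was first, at 132 CPM per kilobase beside 32.5 for Ikzf3 and 26.03 for Ikzf1. Within the Ikaros family, Ikzf2 was first in ileal and synovial Treg of both genotypes, and Ikzf4 in Treg of TNFdARE mesenteric and joint nodes, at 39.03 and 59.1 CPM per kilobase. In WT joint node Treg, Ikzf2 was also first, at 41.3 ± 10.95 (SD) beside 38.6 for Ikzf4 and 37.8 for Ikzf1, so these 3 are not clearly ordered. By the deposited FPKM values, also scaled by gene length, Ikzf1 was first of the family there, at 46.4 beside 37.2 for Ikzf2. In TNFdARE synovial Treg the FPKM of Ikzf3 (47.6) lay above that of Ikzf2 (46.2). In WT mesenteric Treg, Ikzf1 was first, at 38.8.

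The first comparison asked how the sorted Treg differed from Tconv at each site, with both genotypes averaged. Foxp3 itself was the basis of the sort, so its difference only describes the gates: Treg exceeded Tconv 27.6-fold in ileum, 77.0-fold in mesenteric node, 7.74-fold in synovium and 74.7-fold in joint nodes. Among the Ikaros genes, Ikzf4 and Ikzf2 were higher in Treg and Ikzf1 lower, and Ikzf3 was higher in Treg of the nodes. These are edgeR quasi-likelihood tests with Benjamini-Hochberg adjustment over all genes tested and a threshold of 0.05, and Foxp3 is included in the counts of members that follow. In ileum 5 of 6 members passed, where 14.8% of all genes did; in mesenteric node 5 of 6, against 38.6%; in joint nodes 5 of 6, against 43.2%; and in synovium 3 of 6, against 1.1%.

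Ikzf4 was 10.04-fold higher in ileal Treg than in ileal Tconv (log2 difference 3.33 ± 0.11 SE, adjusted p = 5e-08), 9.32-fold higher in mesenteric node (3.22 ± 0.08, adjusted p = 3.2e-10) and 12.1-fold higher in joint nodes (3.60 ± 0.09, adjusted p = 3.9e-13). Its libraries did not overlap between the sorts at these 3 sites. In synovium the difference was 4.98-fold (2.32 ± 0.24, adjusted p = 0.0087), where the WT Treg library B, at 65.8 CPM, lay below both TNFdARE Tconv libraries. The synovial call was lost with the experiment as a block (adjusted p = 0.057) and without TNFdARE Tconv A (adjusted p = 0.053).

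Ikzf2 was separated most in the joint nodes, where Treg were 43.5-fold higher (5.44 ± 0.21, adjusted p = 5.9e-11). The difference was 18.7-fold in mesenteric node (4.23 ± 0.26, adjusted p = 1.7e-07), 4.66-fold in ileum (2.22 ± 0.15, adjusted p = 4e-06) and 3.66-fold in synovium (1.87 ± 0.29, adjusted p = 0.037). Its ranges did not overlap between the sorts at any site. By limma the synovial difference was 1.86 and did not pass. In synovium the adjusted p was 0.13 with the block, 0.07 with the running number as a covariate, and 0.054 to 0.11 when either TNFdARE Tconv library, WT Treg A or TNFdARE Treg B was left out.

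Ikzf1 was lower in Treg 3.104-fold in ileum (-1.63 ± 0.16, adjusted p = 5.2e-05), 2.20-fold in mesenteric node (-1.14 ± 0.07, adjusted p = 1.9e-07) and 2.27-fold in joint nodes (-1.18 ± 0.06, adjusted p = 5e-10). Treg were 1.97-fold lower in synovium without passing the test (-0.98 ± 0.31, adjusted p = 0.27), although no synovial Treg library reached the lowest Tconv library. Ikzf3 was higher in Treg 3.29-fold in mesenteric node (1.72 ± 0.12, adjusted p = 4.2e-07) and 2.52-fold in joint nodes (1.33 ± 0.10, adjusted p = 5.1e-08). In ileum Ikzf3 lay 1.28-fold lower in Treg with overlapping ranges (-0.36 ± 0.11, adjusted p = 0.045), a call that was lost in 10 of the 12 fits that left out 1 library (adjusted p up to 0.11) and with the running number as a covariate (adjusted p = 0.27). In synovium the Ikzf3 difference was 0.07 on the log2 scale. Ikzf5 passed at no site. In synovium, the block lowered the members that passed from 3 to 1 and all genes that passed from 197 to 71.

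The separation of the sorts was smaller in ileum than in its draining node for 3 members, tested as a difference of differences (6.25% of all genes passed). The Treg minus Tconv difference was lower in ileum by -2.01 ± 0.30 for Ikzf2 (adjusted p = 2.5e-04) and by -2.08 ± 0.17 for Ikzf3 (adjusted p = 4.6e-07), and by -1.48 ± 0.20 for Foxp3 (adjusted p = 1.1e-04), all on the log2 scale. In TNFdARE mice the separation was also smaller in synovium than in joint nodes, where 2.02% of all genes passed: by -3.91 ± 0.28 for Foxp3 (adjusted p = 8.9e-07), -3.01 ± 0.47 for Ikzf2 (adjusted p = 0.0017) and -2.08 ± 0.23 for Ikzf4 (adjusted p = 7.1e-05). These 6 differences kept their call in every alternative that was run. The values of Foxp3, the basis of the sort, also describe the gates.

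The study's own contrast was TNFdARE against WT. In Tconv, Foxp3 and Ikzf4 were higher in TNFdARE mice at all 4 sites, and Ikzf2 was higher in both nodes. Members passed in 2 of 6 cases in ileal Tconv, where 1.31% of all genes passed (208, or 338 with the block), in 3 of 6 in mesenteric Tconv (2.36%), in 3 of 6 in joint node Tconv (2.79%) and in 2 of 6 in synovial Tconv (0.512%). Ikzf1, Ikzf3 and Ikzf5 passed in Tconv at no site by edgeR. Foxp3, the basis of the sort, is included in these counts. Its Tconv values, here and in the contrasts between sites, also describe the gates.

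Foxp3 in ileal Tconv stood at 201, 126 and 119 CPM in TNFdARE mice and at 18.9, 13.3 and 17.1 CPM in WT, in experiments A, B and C. Every TNFdARE library lay far above every WT library, a 9.08-fold difference (3.18 ± 0.22, adjusted p = 6e-05). In mesenteric Tconv, the TNFdARE libraries had 22.1 and 36.6 CPM and the WT libraries 7.30, 6.39 and 6.62 CPM, a 4.30-fold difference (2.10 ± 0.17, adjusted p = 6.3e-05). Joint node Tconv had 36.2, 27.7 and 39.7 CPM in TNFdARE and 6.51, 6.52 and 6.87 CPM in WT, a 5.19-fold difference (2.37 ± 0.11, adjusted p = 2.5e-08). At these 3 sites the call held in every alternative. In synovial Tconv, both TNFdARE libraries, at 604 and 600.0 CPM, stood far above the 30.6 CPM of the single WT library, a 20.2-fold difference (4.34 ± 0.48, adjusted p = 0.014). That synovial call assumes that the lone WT library varies like the other synovial groups, and the adjusted p was 0.11 with the block, 0.05 with the running number as a covariate, and 0.069 and 0.073 without TNFdARE A and B. The synovial call was also lost by limma, where the size was 4.34. The lone WT library also stood apart in its CD8 and NK cell genes and in 9 myeloid genes. These myeloid genes summed to 147 CPM against 9.16 and 10.9 CPM in the TNFdARE libraries. The part of both sets of genes in the result was not tested.

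Ikzf4 was higher in the same 4 contrasts. Ileal Tconv had 48.8, 40.5 and 31.9 CPM in TNFdARE and 7.99, 7.32 and 7.36 CPM in WT, a 5.36-fold difference (2.42 ± 0.16, adjusted p = 4.5e-05). Joint node Tconv had 32.5, 34.7 and 46.6 CPM against 16.5, 14.1 and 12.9 CPM, a 2.61-fold difference (1.38 ± 0.12, adjusted p = 6.5e-06). In mesenteric Tconv the levels were 29.9 and 34.1 CPM against 15.02, 19.6 and 19.2 CPM, a 1.77-fold difference (0.82 ± 0.11, adjusted p = 0.0026). The groups did not overlap at any of these sites. Synovial Tconv had 86.6 and 96.8 CPM in TNFdARE and 7.51 CPM in WT, a 12.5-fold difference (3.65 ± 0.41, adjusted p = 0.015). By limma the size was 3.64 and the call was lost. The synovial value carries the same limits as Foxp3 there: the adjusted p was 0.11 with the block, 0.051 with the running number, and 0.069 and 0.077 without TNFdARE A and B. With the block, 0 of 6 members and 2 in place of 92 genes passed in that contrast.

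Ikzf2 in joint node Tconv stood at 20.96, 19.3 and 27.2 CPM in TNFdARE and at 2.60, 5.94 and 7.26 CPM in WT, without overlap and 4.30-fold apart (2.10 ± 0.29, adjusted p = 6.1e-04). In mesenteric Tconv the TNFdARE libraries differed from each other, at 17.7 and 44.1 CPM, above the 9.92, 7.34 and 14.3 CPM of WT (2.90-fold; 1.54 ± 0.34, adjusted p = 0.036). Leaving out the TNFdARE library C lowered that difference to 0.75 on the log2 scale (adjusted p = 0.51), and the call was also lost without WT A (0.12) or WT B (0.14). Ileal Tconv had 251, 174 and 176 CPM in TNFdARE and 155, 101 and 132 CPM in WT, also without overlap, but the difference of 0.63 ± 0.20 did not pass by edgeR (adjusted p = 0.27). It passed with the block (0.64, adjusted p = 0.011) and by DESeq2 (adjusted p = 0.04). Synovial Tconv had 311 and 217 CPM against 84.0 CPM (1.69 ± 0.46, adjusted p = 0.25). This synovial difference passed by DESeq2 (1.61) but not with the block (1.73).

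Ikzf1 lay lower in TNFdARE Tconv of the ileum, at 251, 248 and 278 CPM against 338, 345 and 359.7 CPM, with no overlap, but did not pass (-0.42 ± 0.22, adjusted p = 0.80). It passed with limma (-0.40, adjusted p = 0.043) and with only the groups compared (-0.41, adjusted p = 0.043). With the running number as a covariate it also passed (adjusted p = 0.033). All 6 ileal Tconv libraries are numbered 1 to 32, so the covariate left the difference itself at -0.42. The values of Ikzf1 in mesenteric, synovial and joint node Tconv differed by -0.27, -0.23 and -0.22 on the log2 scale, none of which passed. Ikzf3 differed by 0.27, 0.61, 0.35 and 0.36 in ileal, mesenteric, synovial and joint node Tconv, none past the test by edgeR. In mesenteric node it passed by DESeq2 (0.61, adjusted p = 0.0093). Its size there was 0.92 without TNFdARE B, which leaves 1 TNFdARE library. In joint nodes it passed without TNFdARE B (0.53, adjusted p = 0.025).

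**Figure D3:**
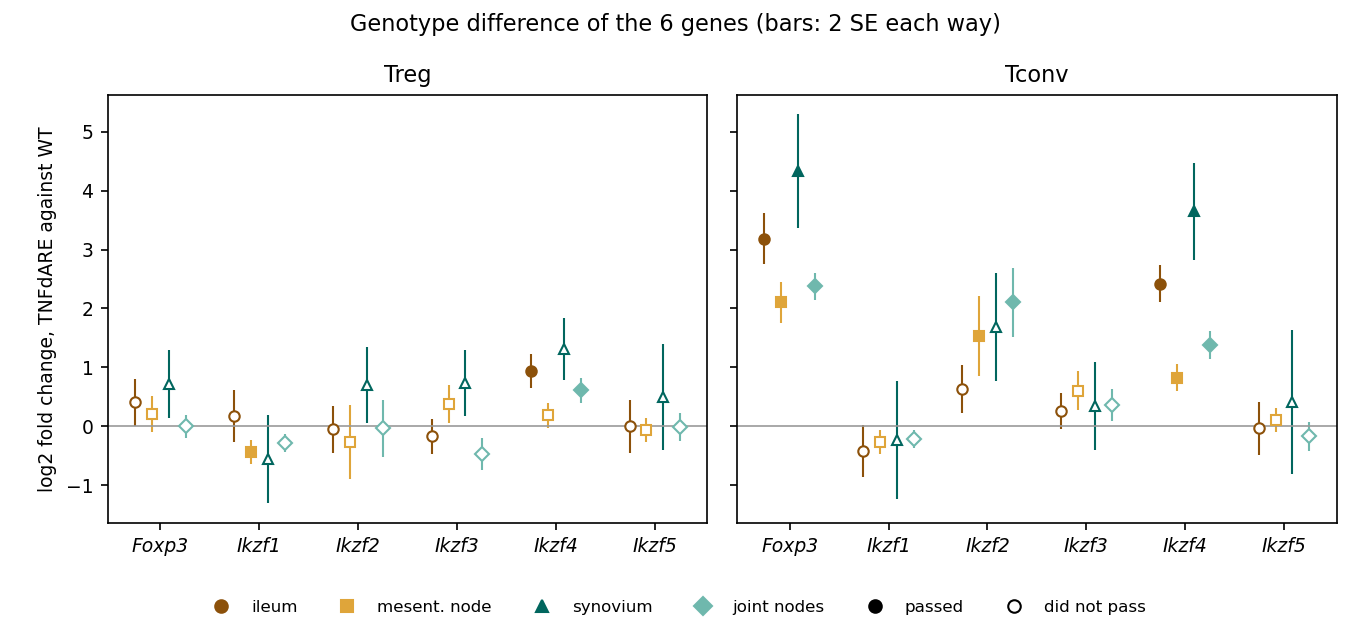
Difference between TNFdARE and WT in log2 units, with bars of 2 standard errors, for each of the 6 genes in Treg and Tconv at 4 sites; filled points passed the test. In Tconv, Foxp3 runs from 2.10 in mesenteric node to 4.34 in synovium and Ikzf4 from 0.82 to 3.65, while Foxp3 in Treg lies between 0.00 and 0.72.

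The share of the Treg level that Tconv reached shows the same values on one scale. For Foxp3, the Tconv mean was 9.54% of the Treg mean in TNFdARE ileum and 1.41% in WT ileum, 44.1% and 3.56% in synovium, 2.56% and 0.674% in mesenteric node, and 3.03% and 0.584% in joint nodes. For Ikzf4 the shares in TNFdARE and WT were 16.8% and 6.08% in ileum, 44.1% and 8.63% in synovium, 13.7% and 8.61% in mesenteric node, and 10.7% and 6.26% in joint nodes. For Ikzf2 they were 27.5% and 17.3%, 37.5% and 18.8%, 10.2% and 2.85%, and 4.78% and 1.097% at the same sites in the same order. The 15 genes of the list raised with Foxp3 in Treg had a median share of 30.3% and 16.5% in ileum, 50.3% and 12.8% in synovium, 9.46% and 6.93% in mesenteric node, and 14.6% and 4.04% in joint nodes. Flicr, whose exons overlap those of Foxp3, had a mean of 7.97 CPM in TNFdARE synovial Tconv and 0.0939 CPM in the WT library, beside 602 and 30.6 CPM of Foxp3; how reads over both genes were counted is not given, and their part was not tested.

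**Figure D4:**
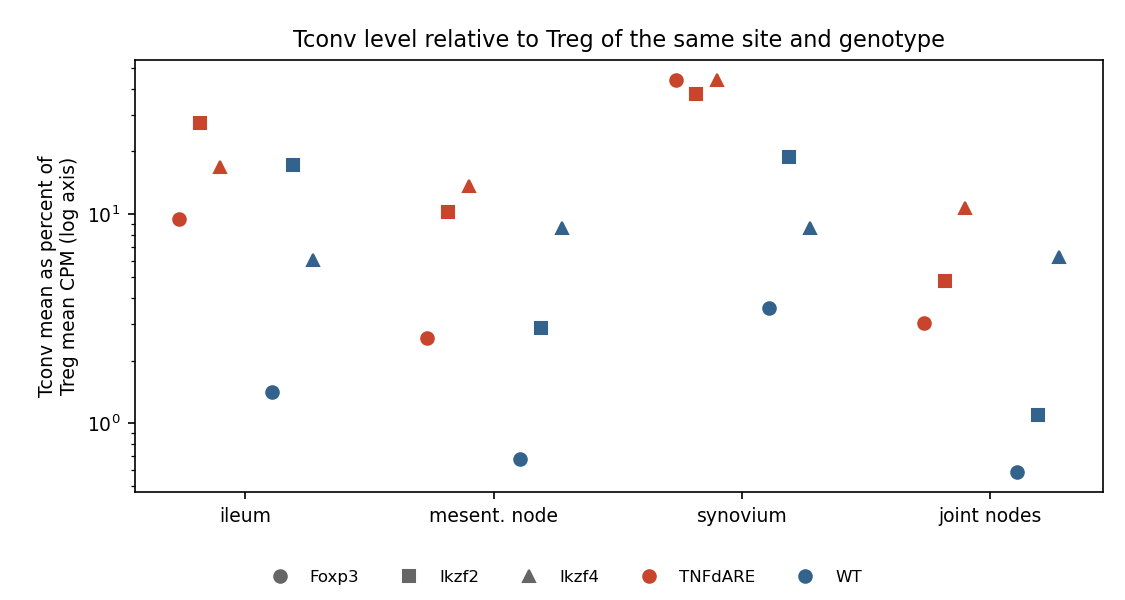
Mean level in Tconv as a percentage of the mean level in Treg of the same site and genotype, on a log axis, for Foxp3, Ikzf2 and Ikzf4; marker shape gives the gene and colour the genotype. For each gene TNFdARE lies above WT at every site, and the TNFdARE synovial values of Foxp3 and Ikzf4 are both 44.1%.

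In Treg the genotype contrast moved fewer members. Ikzf4 rose in TNFdARE Treg of ileum and joint nodes, and Ikzf1 fell in mesenteric Treg. The members that passed were 1 of 6 in ileal Treg, where 0.729% of all genes passed (116, or 238 with the block), 1 of 6 in mesenteric Treg (5.68%), 1 of 6 in joint node Treg (5.7%) and 0 of 6 in synovial Treg (0.156%).

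Ikzf4 in ileal Treg stood at 258, 254 and 209 CPM in TNFdARE and at 132, 123 and 119 CPM in WT, with no overlap and a 1.91-fold difference (0.94 ± 0.14, adjusted p = 0.015). The size was 0.97 with the running number as a covariate (adjusted p = 0.024). Within the libraries numbered 1 to 32, of which 1 is WT ileal Treg, it was 0.91. The call was lost without TNFdARE B (adjusted p = 0.065), by limma (adjusted p = 0.093) and with only the groups compared (adjusted p = 0.14). In joint node Treg the levels were 357, 357 and 349 CPM against 225, 236 and 234 CPM, a 1.53-fold difference (0.61 ± 0.11, adjusted p = 0.0038). That call was lost with all 42 libraries fitted at once (0.61, adjusted p = 0.07). Synovial Treg had 208, 229 and 187 CPM in TNFdARE and 108 and 65.8 CPM in WT, again without overlap, but did not pass (1.31 ± 0.26, adjusted p = 0.16). The stroma genes listed above were also far higher in these WT libraries, and their part was not tested. Mesenteric Treg had 230.4 and 238 CPM against 199.96, 212 and 214 CPM (0.19, adjusted p = 0.38).

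Ikzf1 in mesenteric Treg stood at 162 and 164 CPM in TNFdARE and at 213, 215 and 245 CPM in WT, a 1.35-fold decrease (-0.44 ± 0.10, adjusted p = 0.027) that was lost without TNFdARE B (0.16), TNFdARE C (0.10) or WT C (0.073). In joint node Treg it stood at 165, 201 and 175 CPM against 215, 214 and 225 CPM, and -0.28 ± 0.08 did not pass (adjusted p = 0.053), whereas with the block -0.29 did (adjusted p = 0.016). Ikzf3 in joint node Treg stood at 115, 107 and 125 CPM against 146, 166 and 167 CPM (-0.47 ± 0.14, adjusted p = 0.055; with the block -0.48, adjusted p = 0.020). The block raised the members that passed in joint node Treg from 1 to 3, and all genes from 838 to 1524.

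Foxp3 did not pass between genotypes in Treg at any site. Its differences were 0.41 ± 0.20 in ileum (adjusted p = 0.42), where the groups did not overlap, 0.21 ± 0.16 in mesenteric node (adjusted p = 0.52) and 0.72 ± 0.29 in synovium (adjusted p = 0.48). In joint nodes the difference was 0.00 ± 0.10, and 2 standard errors on either side reach from -0.19 to 0.20. Ikzf2 differed by -0.05, -0.27, 0.70 and -0.04 in ileal, mesenteric, synovial and joint node Treg, none past the test. Ikzf3 differed by -0.17, 0.38 and 0.73 in ileal, mesenteric and synovial Treg, Ikzf1 by 0.18 and -0.56 in ileal and synovial Treg, and Ikzf5 by 0.00, -0.06, 0.50 and -0.02 at the 4 sites, also without passing. In synovial Treg, where edgeR passed no member, 3 had an unadjusted p under 0.05, DESeq2 passed 1 and limma 0; with the block all genes went from 28 to 0.

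The test of whether the genotype difference was the same in Treg and Tconv found it smaller in Treg for Foxp3 at the 3 sites where it was run, and for Ikzf2 in joint nodes. Since Foxp3 was the basis of the sort, its values here also describe the gates. It is included in the counts that follow, and in ileum and mesenteric node it was the member that passed. In ileum 1 of 6 members passed (0.0188% of all genes, or 3 genes in all), in mesenteric node 1 of 6 (0.209%) and in joint nodes 2 of 6 (0.449%). For Foxp3 the Treg difference minus the Tconv difference was -2.78 ± 0.29 in ileum (adjusted p = 0.0083), -1.89 ± 0.24 in mesenteric node (adjusted p = 0.0098) and -2.37 ± 0.15 in joint nodes (adjusted p = 3.6e-06). The ileal call was lost without Treg TNFdARE B (adjusted p = 0.053) and within the libraries numbered 1 to 32 (-2.50, adjusted p = 0.097). For Ikzf2 in joint nodes it was -2.14 ± 0.38 (adjusted p = 0.023), lost in 8 of the 12 fits that left out 1 library (adjusted p up to 0.098) and with the running number as a covariate (-1.98, adjusted p = 0.054). The block raised the members that passed to 2 in ileum, 2 in mesenteric node and 4 in joint nodes, and all genes from 3 to 20, 31 to 62 and 66 to 136. The members it added were Ikzf4 in ileum (-1.48, adjusted p = 0.023; 0.054 without the block), Ikzf2 in mesenteric node (-1.74, adjusted p = 0.045; 0.21 without) and, in joint nodes, Ikzf4 (-0.77, adjusted p = 0.031; 0.051 without) and Ikzf3 (-0.83, adjusted p = 0.036; 0.097 without). This difference was not tested in synovium, where WT Tconv is 1 library.

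Between sites, ileal Treg had less Ikzf1 and more Ikzf2 than mesenteric Treg, and synovial Treg had less Ikzf1 and Ikzf4 and more Ikzf3 than joint node Treg. In ileal against mesenteric Treg, 4 of 6 members passed, where 29.2% of all genes did. Ikzf2 was higher in ileum by 1.148 ± 0.14 on the log2 scale (adjusted p = 2.8e-04) and Ikzf1 lower (-0.99 ± 0.18, adjusted p = 0.003). Ikzf4 was lower by -0.35 ± 0.08 (adjusted p = 0.01; 0.055 without mesenteric TNFdARE C), and Foxp3 higher by 0.33 ± 0.09 (adjusted p = 0.023), which was lost with total counts as the scale (0.20, adjusted p = 0.083), with the running number (adjusted p = 0.074) and without any 1 of 4 of the 5 mesenteric libraries (adjusted p up to 0.12). Ikzf3 differed by 0.31 ± 0.11 (adjusted p = 0.055).

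The ileal Treg values of Ikzf1 moved with the running number and not with the genotype. The 3 libraries numbered 33 or higher had 67.7 (TNFdARE A), 73.6 (WT A) and 75.7 (WT C) CPM, and the 3 numbered 32 or lower had 119 (TNFdARE B), 119 (TNFdARE C) and 119 (WT B) CPM. The genotypes overlapped, and their difference was 0.18 (adjusted p = 0.80). Within the libraries numbered 1 to 32, Ikzf1 was still lower in ileal than in mesenteric Treg (-0.67, adjusted p = 8.7e-04) and lower in ileal Treg than in ileal Tconv (-1.34, adjusted p = 2.8e-05). The labels do not say what the number stands for, and its part in the higher-numbered values was not tested.

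**Figure D5:**
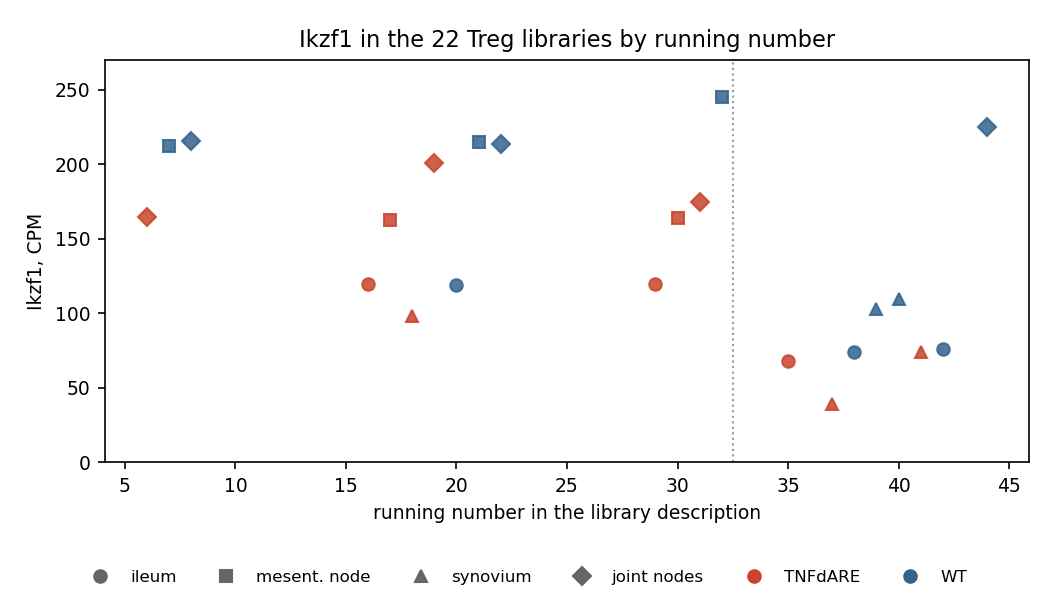
Ikzf1 level in each of the 22 Treg libraries, in CPM, against the running number of the library description; marker shape gives the site, colour the genotype, and the dotted line separates numbers up to 32 from 33 and higher. The ileal libraries to the right of the line lie at 67.7 to 75.7 CPM and those to its left at 119 CPM, in both genotypes.

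In synovial against joint node Treg, 3 of 6 members passed, where 37.7% of all genes did. Ikzf4 was lower in synovium (-1.07 ± 0.12, adjusted p = 1.4e-04), Ikzf1 lower (-1.18 ± 0.20, adjusted p = 0.0015; -0.97, adjusted p = 0.021 with the running number) and Ikzf3 higher (1.04 ± 0.15, adjusted p = 5.2e-04). Foxp3 and Ikzf2 differed by -0.05 and 0.26 and did not pass. The group means of Foxp3 lay in opposite orders in the genotypes: 1365 against 1140 CPM in TNFdARE, and 860 against 1136 CPM in WT. Without WT synovial A, which leaves 1 WT synovial library, the Foxp3 difference was -0.38 in place of -0.05, so its small size depends on that library. All 5 synovial Treg libraries carried more stroma RNA than any node library, and its part in these differences was not tested. Ileal and synovial Treg differed in no member, where 7.42% of all genes passed; 1 had an unadjusted p under 0.05, and DESeq2 and limma passed 0. Without WT synovial A, the differences toward ileum were 0.62 for Foxp3 and 0.55 for Ikzf4, in place of 0.30 and 0.36. Between the nodes, mesenteric Treg had more Ikzf3 than joint node Treg (0.85 ± 0.07, adjusted p = 3.3e-06), less Ikzf4 (-0.38 ± 0.05, adjusted p = 3.3e-04) and less Ikzf2 (-0.51 ± 0.14, adjusted p = 0.032, lost in 7 of 11 fits that left out 1 library). That made 3 of 6 members, against 12.8% of all genes; the block raised all genes from 1932 to 3197. Foxp3 and Ikzf1 differed by -0.08 and -0.05 there and did not pass. By edgeR, Ikzf5 passed in no contrast between sites, with differences of 0.18, -0.27, 0.49 and 0.03 in the 4 contrasts of Treg. Without WT synovial B, which leaves 1 WT synovial library, the -0.27 of synovium against joint nodes became -0.54.

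Ileal Tconv differed from mesenteric Tconv in 5 of 6 members, where 61% of all genes passed. Ikzf2 was higher in ileum by 3.17 ± 0.26 on the log2 scale (adjusted p = 7.7e-07), Ikzf3 by 2.40 ± 0.13 (adjusted p = 2.4e-08) and Foxp3 by 1.82 ± 0.18 (adjusted p = 4e-06), and Ikzf1 was lower (-0.49 ± 0.06, adjusted p = 3.6e-05). Ikzf4 averaged lower in ileum (-0.44 ± 0.12, adjusted p = 0.0082), but its group means lay in opposite orders in the 2 genotypes: 40.4 against 31.98 CPM in TNFdARE, and 7.56 against 17.95 CPM in WT. TNFdARE synovial Tconv differed from TNFdARE joint node Tconv in the same 5 members, where 31.3% of all genes passed. Foxp3 was higher in synovium by 4.16 ± 0.14 (adjusted p = 2.5e-07), Ikzf2 by 3.59 ± 0.34 (adjusted p = 6.7e-05), Ikzf3 by 2.26 ± 0.18 (adjusted p = 2.5e-05) and Ikzf4 by 1.31 ± 0.17 (adjusted p = 4.7e-04). Ikzf1 was lower there (-1.43 ± 0.15, adjusted p = 1.1e-04). Ikzf5 was higher in synovium by 0.47 without passing by edgeR (adjusted p = 0.05). It passed by DESeq2 (0.51, adjusted p = 0.013) and without joint node TNFdARE C (0.53, adjusted p = 0.046). Tconv of the 2 nodes differed in no member by edgeR, where 3.74% of all genes passed; 2 members had an unadjusted p under 0.05, DESeq2 passed 1 and limma 0. The block passed Ikzf3 there (0.48, adjusted p = 0.0091; 0.081 without it) and raised all genes from 607 to 1062.

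Genes that work with these factors were taken from 5 lists. Beside the counts for Treg against Tconv stand the shares of all genes that passed, in either direction: 14.8% in ileum, 38.6% in mesenteric node, 43.2% in joint nodes and 1.1% in synovium, with medians over all genes of 0.02, 0.02, 0.00 and 0.04. Of 15 genes known to be raised with Foxp3 in Treg, 14 were higher in ileal Treg than in Tconv (list median log2 difference 2.01), 15 in mesenteric node (3.47), 15 in joint nodes (3.55) and 6 in synovium (1.96), and none was lower. Il2ra, the high-affinity receptor chain for interleukin-2, was higher by 2.82 in ileum, 5.70 in mesenteric node and 6.27 in joint nodes. Of 7 genes known to be lowered with Foxp3, 7 were lower in ileal Treg, 5 in mesenteric node, 5 of the 6 tested in joint nodes and 1 in synovium. Of 18 proteins known to bind Foxp3, 2 were higher and 6 lower in ileal Treg, 10 and 2 in mesenteric node, 10 and 3 in joint nodes, and 1 and 0 in synovium. Irf4, a factor of activated T cells, was lower in ileal Treg (-0.65, adjusted p = 0.0028) and higher in mesenteric (1.31, adjusted p = 1e-05) and joint node Treg (2.64, adjusted p = 1.7e-10). Of 20 factors that act at the Foxp3 gene, 2 were higher and 4 lower in ileal Treg, 9 and 5 in mesenteric node, 8 and 6 in joint nodes, and 0 and 1 in synovium. Satb1, a chromatin organiser that binds the Foxp3 locus early in Treg development, was lower in Treg of ileum (-1.19), mesenteric node (-1.65) and joint nodes (-1.60). Of 18 genes of the corepressor complexes that Ikaros proteins recruit, 1 was higher and 4 lower in ileal Treg, 2 and 3 in mesenteric node, 1 and 4 in joint nodes, and none passed in synovium, where 2 had an unadjusted p under 0.05 and DESeq2 and limma passed 0. The 5 of 18 in each node lie below the shares of all genes there. With the block the 5 corepressor genes that passed in joint nodes became 10, and the single genes that passed in synovium among the Foxp3-bound, Foxp3-gene and lowered lists became 0 each.

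For the genotype contrast in Tconv, the shares of all genes that passed were 1.31% in ileum, 2.36% in mesenteric node, 2.79% in joint nodes and 0.512% in synovium. In TNFdARE Tconv, 6 of the 15 Treg genes rose and 1 fell in ileum (list median 0.77), 11 rose in mesenteric node (1.12), 13 in joint nodes (1.56) and 6 in synovium (2.66). All genes tested had a median of 0.24 in the synovial contrast and of -0.02, 0.00 and 0.01 in ileum, mesenteric node and joint nodes. With the block, 11 of the 15 passed in ileum in place of 7, and 0 in synovium. Lrrc32, which displays latent TGF-beta on the Treg surface, rose by 2.00 ± 0.27 in ileum (adjusted p = 0.0032), 3.03 ± 0.42 in mesenteric node and 2.80 ± 0.24 in joint nodes. Nrp1, a semaphorin receptor found on many Treg, rose by 2.58 ± 0.26 in ileum (adjusted p = 6.6e-04) and 2.11 ± 0.08 in joint nodes (adjusted p = 2.4e-09). Gpr83, a receptor enriched in Treg, was the one that fell, by 1.27 on the log2 scale in ileal Tconv (adjusted p = 0.0035), and it also fell in TNFdARE ileal Treg, by 1.70 (adjusted p = 0.0019), a call lost when only those 2 groups were fitted. Among the Foxp3-bound partners, Gfi1, a repressor of T cell activation genes, was the gene that passed in both nodes, with 0.67 ± 0.12 in mesenteric node (adjusted p = 0.01, lost without TNFdARE B or C) and 1.02 ± 0.13 in joint nodes (adjusted p = 1.8e-04). None of the 18 passed in ileum by edgeR (5 at an unadjusted p under 0.05, 3 by DESeq2, 3 by limma and 1 with the block). Gata3 and Hif1a passed in synovium; both calls were lost with the block and without either TNFdARE library. The 7 genes lowered with Foxp3 passed in 0 cases at each site in Tconv by edgeR, with 1 or 2 at an unadjusted p under 0.05, by DESeq2 and by limma alike, and 2, 0, 0 and 1 with the block in ileum, mesenteric node, synovium and joint nodes. Factors acting at the Foxp3 gene passed in 0 of 20 cases at each site in Tconv by edgeR, with 1 to 4 at an unadjusted p under 0.05, 1 or 2 by DESeq2 and 0 to 3 by limma. Corepressor genes passed in 0 of 18 cases at each site, with 0 to 2 at an unadjusted p under 0.05, and 0 or 1 by DESeq2 and by limma.

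For the genotype contrast in Treg, the shares of all genes that passed were 0.729% in ileum, 5.68% in mesenteric node, 5.7% in joint nodes and 0.156% in synovium. Of the 15 Treg genes, 2 fell in ileum (median -0.08), 2 rose and 1 fell in mesenteric node (0.39), 4 rose and 1 fell in joint nodes (0.17), and 0 passed in synovium (0.83), where 9 had an unadjusted p under 0.05, DESeq2 passed 7 and limma 0. With the block, 9 of the 15 passed in joint nodes in place of 5. Among the Foxp3-bound partners, Foxp1, a forkhead relative of Foxp3, fell by 0.39 in joint node Treg (adjusted p = 0.0033) and by 0.50 in mesenteric Treg (adjusted p = 0.026), where the call was lost in 4 of 5 fits that left out 1 library. Runx3, a Runt-domain factor of effector T cells, rose by 0.58 in mesenteric Treg (adjusted p = 0.038, lost in 3 of 5 such fits) and by 0.43 in joint node Treg (adjusted p = 0.04), lost there in 5 of 6 and with the running number as a covariate. Nrp1 rose in joint node Treg by 0.90 ± 0.07 (adjusted p = 4.6e-06), and Capg, an actin-capping protein, rose in mesenteric Treg by 0.84 ± 0.11 (adjusted p = 0.0014). Satb1 fell by 0.58 in mesenteric Treg (adjusted p = 0.0034) and by 0.63 in joint node Treg (adjusted p = 1.2e-04).

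The genes whose group means followed each member most closely were ranked among 13195 genes by Pearson's r of log2 CPM over the 16 groups, which share sorts and sites, so the values are a description. Foxp3 was followed by Eva1b (0.973), Il2ra (0.963), Entpd1 (0.963), Swap70 (0.960) and Lclat1 (0.957). Ikzf2 was followed by Pear1 (0.971), Entpd1 (0.969), Coro2a (0.964), Tnfrsf4 (0.963) and Myo1e (0.962), and Ikzf4 by Bmyc (0.940), Lclat1 (0.940), Cd101 (0.930), Stam2 (0.926) and Vav2 (0.922). Foxp3 and Ikzf2 thus shared Entpd1, which encodes the ATP-degrading surface enzyme CD39, and Foxp3 and Ikzf4 shared Lclat1. Ikzf1 was followed by Pip4k2a (0.968), Tesc (0.956), Sdad1 (0.952) and Tdrp (0.951). Ikzf3 was followed by Il12rb1 (0.965), Atp2b4 (0.953), Nek7 (0.953) and Icos (0.951). Ikzf5 was followed by Fancm (0.920), Mapkap1 (0.915), Usp31 (0.901), Sdf2l1 (0.901) and Slc41a1 (0.899). Among the members, Foxp3 had r = 0.92 with Ikzf2, 0.92 with Ikzf4, 0.58 with Ikzf3, 0.03 with Ikzf5 and -0.83 with Ikzf1 over the same groups.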

How the data were processed

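RNA of sorted cells had been made into full-length cDNA libraries with the SMART-Seq v4 PLUS protocol and read as single 100-base reads, from 100 pg or 2 ng of RNA, per the labels' protocols, which do not say which library had which. The deposited counts are whole reads per Ensembl gene; cutadapt 1.15, Bowtie2 2.3.3.1 and GRCm38 are named in the submitters' processing notes, and the counter, annotation and strand setting are not given in the sources used here. The deposited FPKM values, for 18964 genes, were used only as an alternative ranking of the members' levels; 97.2% of those genes held a repeated value.

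Counts were tested with edgeR 4.0.16 in R 4.3.3 (TMM, filterByExpr, 1 mean per group, 1 fit per site or pair of sites, quasi-likelihood F test, Benjamini-Hochberg over all genes tested, threshold 0.05), and SE is the log2 difference over the root of F. The procedure was tested on simulated data. CPM use TMM sizes over all 42 libraries. Alternatives were DESeq2 1.42.0, limma 3.58.1 (voom), other scalings and filters, other sets of libraries, a replicate block, the running number as a covariate and each library left out. The experiment letter pairs the libraries, since the design names 3 independent experiments: same-letter deviations correlated above 0.1 in 13 of 19 pairs of cell types (-0.04 to 0.43) and 8 of 18 pairs of genotypes (-0.53 to 0.46). Gene symbols and lengths came from GENCODE M21.

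Members, lists and tests were chosen with earlier results of these data known. The text names the members, from each list at most 4 genes with the smallest adjusted p, and for each member the 5 protein-coding genes with the highest r. Of these like genes, 2 are not reported here.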

Additional observations from a re-analysis of the deposited data

Results flagged for a closer look

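In 10 cases the same contrast gave different log2 differences in 2 settings by a test of the difference itself. The genotype difference of Foxp3 was smaller in Treg than in Tconv by -2.78 in ileum, -1.89 in mesenteric node and -2.37 in joint nodes, and that of Ikzf2 by -2.14 in joint nodes. The Treg minus Tconv difference was smaller in ileum than in mesenteric node by -1.48 for Foxp3, -2.01 for Ikzf2 and -2.08 for Ikzf3. In TNFdARE mice it was smaller in synovium than in joint nodes by -3.91 for Foxp3, -3.01 for Ikzf2 and -2.08 for Ikzf4. For Foxp3, the basis of the sort, all these differences also describe the gates.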

How the results depend on the processing

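Of 144 member results, 61 passed and 46 of these passed under every alternative. These counts include Foxp3, the basis of the sort. They pool 24 contrasts in which 0.0188% to 61% of all genes passed. Over 2610 alternative fits none reversed a called direction, 82 lost a call and 71 gained a call. Counts of members that passed changed as follows. In ileal Treg between genotypes, the 1 became 0 with limma, with only the groups compared, and with libraries numbered 1 to 32 (an alternative chosen after seeing the data), and was 0 to 1 leaving out 1 library. The ileal difference of genotype effects gave 2 in place of 1 without normalisation factors, without the filter, with the replicate block, with DESeq2 and with all 42 libraries fitted at once, 0 with numbers 1 to 32, and 0 to 2 leaving out 1. Mesenteric Treg gave 2 in place of 1 without the filter, 0 with all 42, and 0 to 1 leaving out 1; the mesenteric difference of effects gave 3 without the filter, 2 with the block and with DESeq2, and 1 to 2 leaving out 1. Synovial Treg against Tconv gave 1 in place of 3 with the block and with limma (1 to 3 leaving out 1). Synovial Tconv between genotypes gave 0 in place of 2 with the block, the running number, limma and each library left out that could be fitted (0 to 0). Synovial Treg gave 1 with DESeq2 and 3 with all 42 in place of 0. Joint node Treg gave 2 in place of 1 without normalisation factors, without the filter and with only the groups compared, 3 with the block, limma and DESeq2, 0 with all 42, and 1 to 2 leaving out 1. The joint node difference of effects gave 4 in place of 2 without the filter, with the block and with DESeq2, 1 with the running number, numbers 1 to 32 and all 42, and 1 to 3 leaving out 1. Between sites, ileal against mesenteric Treg gave 2 to 5 leaving out 1, ileal against synovial Treg 2 in place of 0 with all 42 (0 to 2 leaving out 1), mesenteric against joint node Treg 1 in place of 3 with all 42, and the same nodes in Tconv 2 without the filter and 1 with the block and with DESeq2 in place of 0 (0 to 1 leaving out 1). The causes were not tested. The block changed no other count of members by over 1.5 times. Member levels with total counts moved by more than 1 SD in 15 of 96 group means (ratio 0.913 to 1.082), ranks by FPKM differed in 10 of 96 cases, and 7 of the 30 genes most like a member were also in the top 5 by Spearman's rho. WT synovial Tconv, with 1 library, limits the synovial contrasts that use it. The number of all genes that passed, with its range over the alternatives, was 2353 (1264 to 3452), 5720 (2437 to 6200), 197 (41 to 3262) and 6351 (2980 to 7503) for Treg against Tconv in ileum, mesenteric node, synovium and joint nodes. Between genotypes at these sites in the same order it was 116 (5 to 729), 842 (194 to 1405), 28 (0 to 3512) and 838 (86 to 1726) in Treg and 208 (92 to 1024), 350 (121 to 884), 92 (2 to 2144) and 410 (123 to 605) in Tconv, and 3 (0 to 98), 31 (3 to 339) and 66 (13 to 224) for the difference of genotype effects in ileum, mesenteric node and joint nodes. It was 4881 (1996 to 7212), 6177 (3347 to 8879), 1271 (734 to 6302) and 1932 (323 to 3197) for ileal against mesenteric, synovial against joint node, ileal against synovial and mesenteric against joint node Treg, 9672 (5915 to 9982), 607 (143 to 1456) and 6075 (4589 to 7721) for the 3 site contrasts of Tconv, and 1101 (714 to 1904) and 423 (293 to 1053) for the differences between tissue and node.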
